A study of Homo sapiens with 9 samples.

Results

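PLA2G2A, the secreted group IIA phospholipase A2, was considered together with the genes that make, sense and inactivate prostaglandin E2. The set held 10 genes of 58920 listed, found by symbol in the count table of every library: PLA2G2A, PLA2G4A, PTGS1, PTGS2, PTGES, PTGES2, PTGES3, PTGER4, HPGD and PTGR1. PLA2G2A and HPGD were picked because they differed between the lines in these same libraries, so their values are given as a description without a test. The other 8 genes belong to the same pathway and were listed with earlier results of these data known.

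RNA of the colorectal cancer cell line LIM1215 was sequenced from 3 lines in basal culture without drug treatment. LIM1215 is initially sensitive to cetuximab, an antibody that blocks the epidermal growth factor receptor. LIM1215-R1 and LIM1215-R2 were selected from it in parallel under rising cetuximab, and LIM1215-parental cells were carried alongside without the antibody. Both resistant lines are mixed populations rather than single clones, and the study describes HRAS-mutant cells within each. The 3 libraries per line are called technical replicates in the study, so the p-values measure the spread between these libraries, which may be technical, and each resistant line is 1 selection. Libraries held 13737416 to 18725014 counts, and 3 counts in 1 library correspond to 0.158 to 0.217 CPM, where CPM are a gene's counts scaled to a common library size.

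The lines carried the markers of their label: 7 of 8 markers of colorectal epithelium had counts in each line, with KRT20 at 0 throughout. Their summed level was 11821 to 12185 CPM for LIM1215-parental, 15204 to 15472 CPM for LIM1215-R1 and 13780 to 14179 CPM for LIM1215-R2. KRT8 and KRT18 made up most of that sum and rose with VIL1 in both resistant lines, while EPCAM, CDX1 and CDX2 passed as lower in both. The 7 leukocyte markers summed to 7.32 to 14.4 CPM over all libraries, with PTPRC, CD3E and TYROBP at 0 throughout. CD68, a lysosomal protein of macrophages, carried that sum with means of 8.29, 13.4 and 9.79 CPM and was higher in LIM1215-R1 (log2 fold change 0.70, edgeR adjusted p = 9.243e-05). The 7 fibroblast markers together reached at most 2.18 CPM and the 4 endothelial ones at most 0.722 CPM. The part of any of these in the results was not tested. In RNA of a mixed population, fewer cells that express a gene and less RNA of it per cell cannot be told apart.

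Prostaglandins are lipid signals made from arachidonic acid. Phospholipases A2 free the acid from membrane phospholipids, cyclooxygenases convert it to prostaglandin H2, and terminal synthases turn that into prostaglandin E2, which acts on receptors of the EP family. A dehydrogenase, HPGD, then begins its inactivation. In the intestine PLA2G2A is a product of Paneth cells with antibacterial activity, PTGS2 is raised in many colorectal tumours, and HPGD is a gene of differentiated colonic epithelium.

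The sequences before the transcription starts of 3 genes with large differences between the lines are shown for reference, each 250 bases that end at the base before a RefSeq start (GRCh38.p14, minus strand, read 5′ to 3′). For PLA2G2A the window of the most upstream start was taken (chr1:19980435-19980684), for PTGS2 chr1:186680424-186680673, and for PTGES chr9:129753043-129753292. None of these windows overlapped an annotated exon of its own gene, and exons of other genes were not checked. Both windows of HPGD lay inside exons of its longer transcripts and are not printed. Capitals mark matches to the motifs searched.

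PLA2G2A: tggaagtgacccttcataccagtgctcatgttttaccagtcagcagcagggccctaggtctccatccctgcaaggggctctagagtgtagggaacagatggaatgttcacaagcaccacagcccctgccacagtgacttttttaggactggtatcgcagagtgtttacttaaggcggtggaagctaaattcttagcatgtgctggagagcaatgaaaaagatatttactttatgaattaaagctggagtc

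PTGS2: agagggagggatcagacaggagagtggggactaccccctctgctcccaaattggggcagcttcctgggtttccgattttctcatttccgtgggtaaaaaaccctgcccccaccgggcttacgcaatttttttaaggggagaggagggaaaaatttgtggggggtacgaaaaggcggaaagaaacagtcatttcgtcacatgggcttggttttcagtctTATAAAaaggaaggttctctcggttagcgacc

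PTGES: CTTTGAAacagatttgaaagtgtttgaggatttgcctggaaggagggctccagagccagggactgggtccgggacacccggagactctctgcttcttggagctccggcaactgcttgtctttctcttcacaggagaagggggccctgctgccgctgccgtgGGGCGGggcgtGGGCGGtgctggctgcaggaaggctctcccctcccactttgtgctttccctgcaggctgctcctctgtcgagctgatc

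Each motif was searched on both strands. The PTGS2 window held a TATA box, TATAAA, with its bases 32 to 27 before the start, a motif found in 10.7% of the 35116 windows of this length. The PTGES window held 2 GC boxes, GGGCGG, a motif of 42.6% of windows. It also held CTTTGAA, a form of the motif of the TCF/LEF factors of Wnt signalling that 3.8% of windows hold. No match was found in the PLA2G2A window printed, while the windows of its other 2 starts, which overlap each other, held the same single E-box, CAGCTG, a motif of 14% of windows. The other TCF/LEF form searched, CTTTGAT, occurred in 2.26% of windows, and the cyclic AMP response element TGACGTCA in 1.65%. Neither was in the printed windows, and no motif overlapped another. These matches are descriptions of letters and say nothing of which factor was bound.

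Of the 8 genes that were not picked for their change, 4 were higher and 1 was lower in LIM1215-R1 than in LIM1215-parental, and 3 did not pass the test. A gene passed at an adjusted p of at most 0.01 (edgeR's quasi-likelihood test, Benjamini-Hochberg over the 19102 genes tested), a threshold that 27.3% of those genes met (14% higher, 13.4% lower). In LIM1215-R2, 3 of the 8 were higher, 1 was lower and 4 did not pass, against 23.8% of all genes tested (12.3% higher, 11.6% lower). Between the resistant lines 2 of the 8 passed, both lower in LIM1215-R2, against 7.16% of all genes (3.39% higher, 3.77% lower). Both comparisons with parental cells use the same 3 parental libraries and are not independent of each other. A gene that passed and also changed by 1.5 or more on the log2 scale, in either direction, was called a differentially expressed gene (DEG). In LIM1215-R1 these were 5.14% of all genes (3.24% higher, 1.91% lower), in LIM1215-R2 4.82% (2.63% higher, 2.19% lower) and between the resistant lines 0.764% (0.215% higher, 0.55% lower). Of the 8, 2 were DEGs in LIM1215-R1 (PTGS2 and PTGES), 1 in LIM1215-R2 (PTGS2) and 1 between the resistant lines (PTGES). PTGES had enough counts to be tested only through LIM1215-R1, so its place in these numbers is a description. The median log2 fold change of all genes tested was -0.01 in LIM1215-R1 and -0.00 in LIM1215-R2.

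**Figure D1:**
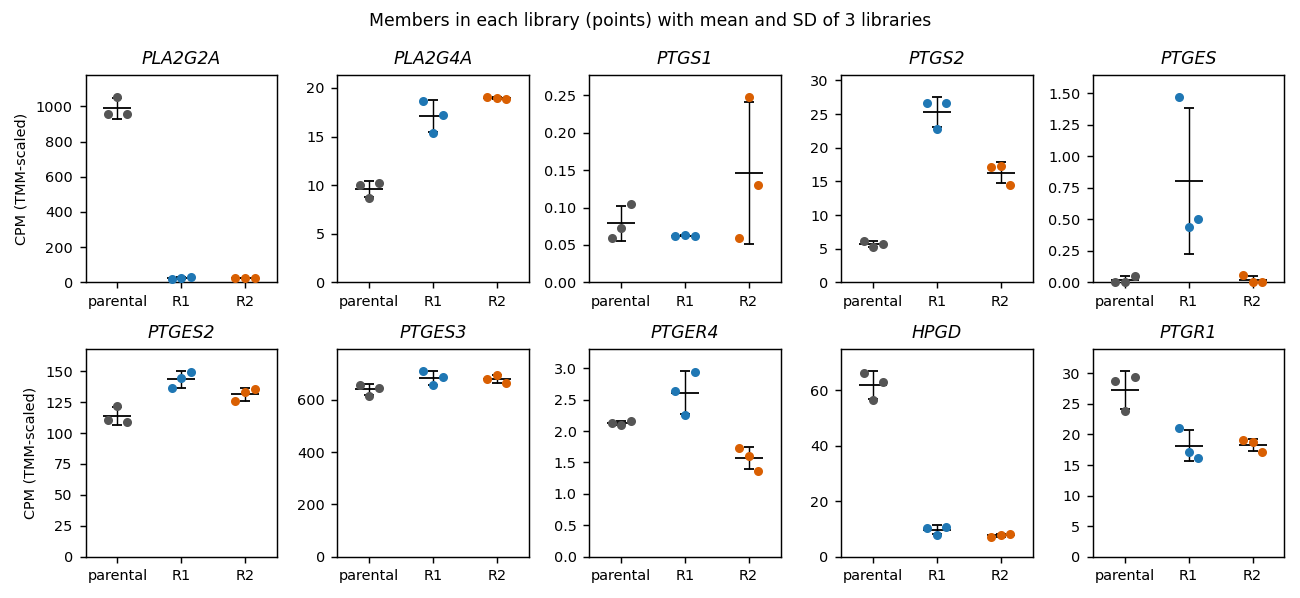
Level of each of the 10 genes in CPM after TMM scaling (y axis, from 0, with its own range in each panel) in the 9 libraries, by line (x axis). Points are libraries, horizontal bars are means and whiskers are SD of 3 libraries. PLA2G2A and HPGD are high in all 3 parental libraries, PTGS2 and PLA2G4A are high in the resistant ones, and PTGES reached more than 1 count only in LIM1215-R1.

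PLA2G2A (ENSG00000188257.12, hg38 chr1:19975431-19980416, minus strand, 4 exons) was among the most abundant transcripts of parental cells. Here and below, exon numbers count the merged exons of all annotated transcripts of a gene, and a single transcript can differ. The level of PLA2G2A was 953, 1054 and 956 CPM in the parental libraries, 22.2, 23.5 and 28.7 CPM in LIM1215-R1, and 23.1, 24.1 and 27.4 CPM in LIM1215-R2. The lowest parental library was far above the highest resistant library, and the libraries of the resistant lines overlapped. By level per kilobase of exon, PLA2G2A ranked 18 to 19 in each parental library and 2634 to 3399 in the resistant libraries, among the 39284 genes with an annotated length, which cover 85.7% of the genes tested. Its log2 fold change was -5.32 (SE 0.0724) in LIM1215-R1 and -5.31 (SE 0.0724) in LIM1215-R2, that is 39.9-fold and 39.8-fold lower. Between the resistant lines the difference was 0.00 on the log2 scale, with a 95% interval of -0.17 to 0.17. With 362 to 458 counts per library, the transcript remained well above the floor of 3 counts in each resistant library.

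Because PLA2G2A is a Paneth cell product, the markers of Paneth and goblet cells are given beside it. Summed over 13 markers, their level was 686 to 699.7 CPM for LIM1215-parental, 218 to 230.4 CPM for LIM1215-R1 and 281 to 308 CPM for LIM1215-R2. Of 10 markers tested, 5 were lower and 1 was higher in LIM1215-R1, and 6 were lower and 2 higher in LIM1215-R2. Over all genes tested, 27.3% passed in LIM1215-R1 and 23.8% in LIM1215-R2. ATOH1 and ITLN1, lower in both lines, and LYZ, lower in LIM1215-R2, had enough counts to be tested only through parental cells. Their place in these numbers is a description. AGR2 and REG4, secretory genes, carried most of the sum, with means of 526 and 101 CPM (LIM1215-parental), 162 and 14.8 CPM (LIM1215-R1) and 207 and 32.0 CPM (LIM1215-R2). Paneth cell products were at or near 0 already in parental cells: LYZ had a mean of 0.402 CPM, DEFA6 had 1 count over the 9 libraries, and DEFA5 had none. TFF3, a goblet cell gene, passed as lower in both lines, from a mean of 49.9 CPM (LIM1215-parental) to 32.4 and 38.1 CPM. ITLN1 had a mean of 0.919 CPM in parental cells and no count in either resistant line. The goblet cell gene MUC2 passed as higher in LIM1215-R1 (1.34 to 2.72 CPM), and SPINK4 and FCGBP passed as higher in LIM1215-R2. ATOH1, a transcription factor of secretory cells, had a mean of 1.91 CPM in parental cells and no count in either resistant line, and CLCA1 was at 0 in all libraries. The part of these cell types in the PLA2G2A values was not tested.

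PLA2G2A lies in a cluster of related secreted phospholipase genes on chromosome 1, and none of the 5 others listed exceeded 23 counts over the 9 libraries. The neighbour PLA2G5, 47.8 kb away, had 0 counts over all 9 libraries. PLA2G2E, 51.8 kb away on the other side, had 3 counts in all, and PLA2G2D and PLA2G2F had 2 each. PLA2G2C had 23 counts in all and did not pass in either line (adjusted p = 0.279 in LIM1215-R1 and 0.354 in LIM1215-R2, edgeR). PLA2R1, the receptor that binds secreted phospholipases A2, was rare: it had 18, 10 and 14 counts in the parental libraries, 0, 0 and 1 in LIM1215-R1, and 1, 1 and 4 in LIM1215-R2. It passed as lower in both lines (edgeR adjusted p = 2.923e-05 and 0.001025). With 1 count in all in LIM1215-R1, the ratio of counts was 40.6-fold lower, with a 95% interval of 6.91 to 1643 that covers counting error only. In LIM1215-R2 its call was lost without parental replicate 1 (adjusted p = 0.01004) or LIM1215-R2 replicate 1 (adjusted p = 0.01049).

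PLA2G4A (ENSG00000116711.10, chr1:186828949-186988981, plus strand, 18 exons) encodes the cytosolic phospholipase A2 that prefers arachidonic acid and is activated by calcium and by mitogen-activated protein kinases. It was measured at 9.97, 8.67 and 10.2 CPM in the parental libraries, 18.6, 15.4 and 17.2 CPM in LIM1215-R1, and 19.1, 18.95 and 18.9 CPM in LIM1215-R2. All resistant libraries lay above all parental ones. Libraries that did not overlap between the groups were found for 44% of all genes tested in LIM1215-R1 and 42.8% in LIM1215-R2, in either direction. The gene rose on the log2 scale by 0.82 (SE 0.102, edgeR adjusted p = 2.626e-07) in LIM1215-R1 and 0.97 (SE 0.101, edgeR adjusted p = 1.038e-08) in LIM1215-R2. It did not reach the DEG threshold in either line. The difference between the resistant lines was 0.15 with a 95% interval of -0.04 to 0.34 (adjusted p = 0.347).

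The secreted and the cytosolic phospholipase thus moved in opposite directions. Per kilobase of exon, PLA2G2A was 183 ± 27.7 times the level of PLA2G4A in parental cells (SD, n = 3), 2.58 ± 0.431 times in LIM1215-R1 and 2.31 ± 0.221 times in LIM1215-R2. This ratio was 70.8-fold and 79.0-fold lower in the resistant lines and includes the picked gene, so it is a description.

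Of the cyclooxygenases, PTGS1 (ENSG00000095303.17, chr9:122370530-122395703, plus strand), the cyclooxygenase that many tissues express constitutively, was close to undetected, with 4 counts summed over the parental libraries, 3 over those of LIM1215-R1 and 7 over those of LIM1215-R2. Its highest library had 4 counts. A difference could not be seen at this depth, and no fold is given.

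PTGS2 (ENSG00000073756.13, chr1:186671791-186680922, minus strand, 10 exons), the inducible cyclooxygenase known as COX-2, lies 148 kb from PLA2G4A. It stood at 6.14, 5.27 and 5.72 CPM in the parental libraries, 26.6, 22.8 and 26.7 CPM in LIM1215-R1, and 17.1, 17.3 and 14.5 CPM in LIM1215-R2. The libraries formed 3 groups without overlap, lowest in parental cells and highest in LIM1215-R1. PTGS2 rose in LIM1215-R1 by 2.14 on the log2 scale (SE 0.110, edgeR adjusted p = 6.184e-15), which is 4.42-fold. In LIM1215-R2 it rose by 1.51 (SE 0.116, edgeR adjusted p = 2.887e-11), which is 2.85-fold and just inside the DEG threshold. Without LIM1215-parental replicate 2, or without replicate 1 or 2 of LIM1215-R2, the value fell to between 1.46 and 1.48, outside that threshold but still at an adjusted p of at most 0.01. LIM1215-R2 was lower than LIM1215-R1 by 0.63 on the log2 scale (-0.63, SE 0.0944, edgeR adjusted p = 2.428e-05). The libraries of 28% of all genes tested did not overlap between the resistant lines. The long noncoding RNA PACERR lies opposite PTGS2, and the counting used strand.

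**Figure D2:**
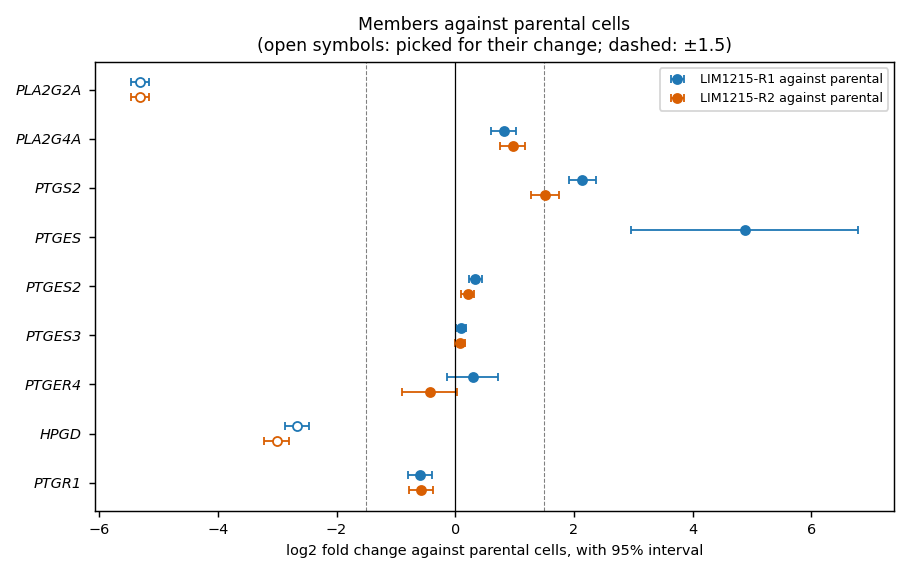
Log2 fold change against LIM1215-parental (x axis) with its 95% interval from edgeR, for LIM1215-R1 and LIM1215-R2, by gene (y axis). Open symbols are the picked genes and dashed lines mark the DEG threshold of 1.5. PTGS1, and PTGES in LIM1215-R2, are left out because both lines compared were at or near the floor. PLA2G2A and HPGD lie beyond -1.5 in both lines, PTGS2 lies at 2.14 and 1.51, and PTGES lies at 4.88 in LIM1215-R1.

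The terminal synthases of prostaglandin E2 differed widely in level. PTGES (ENSG00000148344.11, chr9:129738331-129753042, minus strand, 4 exons), the inducible microsomal enzyme that couples to PTGS2, was almost absent from parental cells. It had 0, 0 and 1 counts in the parental libraries, 24, 7 and 8 counts in LIM1215-R1, and 1, 0 and 0 counts in LIM1215-R2. Every LIM1215-R1 library was above every other library, and replicate 1 gave 24 of its 39 counts. The ratio of depth-scaled counts of LIM1215-R1 to LIM1215-parental was 40.3, with a 95% interval of 6.82 to 1632 for counting error only. The fitted log2 fold change was 4.88 (SE 0.930, edgeR adjusted p = 0.0001236). It was 4.11 (adjusted p = 0.00309) without LIM1215-R1 replicate 1 and 6.70 without parental replicate 3, which leaves the parental line with no count. PTGES was 39.0-fold lower in LIM1215-R2 than in LIM1215-R1 by the same ratio (95% interval 6.61 to 1581; fitted log2 fold change -4.84, edgeR adjusted p = 0.0006358). Without LIM1215-R1 replicate 1 that adjusted p was 0.009555. With 1 count each, LIM1215-R2 and LIM1215-parental gave no fold.

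PTGES2 (ENSG00000148334.16, chr9:128120693-128128462, minus strand, 6 exons) encodes a second membrane-associated synthase. Its level was 110.9, 122 and 109 CPM in the parental libraries, 136, 145 and 149 CPM in LIM1215-R1, and 126, 133 and 135 CPM in LIM1215-R2. Each resistant library exceeded each parental library, by a small margin. PTGES2 rose by 0.34 on the log2 scale in LIM1215-R1 (SE 0.0544, edgeR adjusted p = 1.482e-05), from 113.8 ± 6.89 to 143 ± 6.63 CPM (SD, n = 3). In LIM1215-R2 it rose by 0.21 (SE 0.0546, edgeR adjusted p = 0.003614). That call was lost without parental replicate 1 (adjusted p = 0.02253), parental replicate 3 (0.0349), LIM1215-R2 replicate 2 (0.023) or LIM1215-R2 replicate 3 (0.02461).

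PTGES3 (ENSG00000110958.16, chr12:56663341-56688408, minus strand, 9 exons), the cytosolic synthase better known as the HSP90 co-chaperone p23, was abundant in all lines. It was measured at 657, 615 and 646 CPM in the parental libraries, 707.5, 654 and 685 CPM in LIM1215-R1, and 679, 692 and 663 CPM in LIM1215-R2. Its log2 differences from parental cells were 0.09 in LIM1215-R1 (95% interval 0.01 to 0.18, adjusted p = 0.0711) and 0.09 in LIM1215-R2 (95% interval 0.00 to 0.17, adjusted p = 0.11), neither past the threshold in edgeR's test. Processed copies of PTGES3 had counts of their own, 325 in all for PTGES3P1 and 76 for PTGES3P3, so reads may have been split between them and the level is uncertain to that extent.

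The receptor PTGER4 (ENSG00000171522.6, chr5:40679915-40693735, plus strand, 4 exons), known as EP4, signals through cyclic AMP. It was low in all lines, at 2.12, 2.09 and 2.15 CPM in the parental libraries, 2.64, 2.26 and 2.94 CPM in LIM1215-R1, and 1.72, 1.61 and 1.37 CPM in LIM1215-R2. The libraries of the 3 lines did not overlap, but with 21 to 47 counts per library no comparison passed. The log2 difference was 0.30 in LIM1215-R1 (95% interval -0.13 to 0.72, edgeR adjusted p = 0.301) and -0.43 in LIM1215-R2 (95% interval -0.90 to 0.03, edgeR adjusted p = 0.16). Between the resistant lines it was -0.73 (95% interval -1.18 to -0.28, edgeR adjusted p = 0.0273).

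HPGD (ENSG00000164120.14, chr4:174490175-174523154, minus strand, 8 exons) encodes the dehydrogenase that oxidises prostaglandin E2 to an inactive ketone. It stood at 66.2, 56.4 and 63.1 CPM in the parental libraries, 10.4, 7.84 and 10.9 CPM in LIM1215-R1, and 7.13, 7.74 and 8.23 CPM in LIM1215-R2. All parental libraries were above all resistant ones, and those of the resistant lines overlapped. Its log2 fold change was -2.67 (SE 0.0969) in LIM1215-R1 and -3.01 (SE 0.101) in LIM1215-R2, or 6.37-fold and 8.06-fold lower. Between the resistant lines the value was -0.34 (95% interval -0.60 to -0.08). These values are a description, since the gene was picked for this difference.

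PTGR1 (ENSG00000106853.20, chr9:111549722-111599893, minus strand, 13 exons), the reductase that acts on the ketones formed by HPGD and also on leukotriene B4, fell less. It was measured at 28.7, 23.8 and 29.4 CPM in the parental libraries, 21.1, 17.2 and 16.2 CPM in LIM1215-R1, and 19.03, 18.8 and 17.2 CPM in LIM1215-R2. The lowest parental library was above the highest resistant one. PTGR1 decreased by 0.59 on the log2 scale in LIM1215-R1 (-0.59, SE 0.0981, edgeR adjusted p = 1.986e-05) and by 0.58 in LIM1215-R2 (-0.58, SE 0.0980, edgeR adjusted p = 2.774e-05). Between the resistant lines the difference was 0.01 (95% interval -0.20 to 0.22).

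Levels of different genes were compared per kilobase of exon, with lengths from GENCODE v44. In parental cells PLA2G2A led with 605 ± 35.1 CPM per kilobase (SD, n = 3), followed by PTGES3 at 188, PTGES2 at 18.7, HPGD at 11.2, PTGR1 at 7.24, PLA2G4A at 3.34, PTGS2 at 1.04 and PTGER4 at 0.599. All neighbours in that order were separated in every library. PTGS1 and PTGES were at the bottom and overlapped. In LIM1215-R1 the order was PTGES3 at 201, PTGES2 at 23.6, PLA2G2A at 15.2, PLA2G4A at 5.93, PTGR1 at 4.82, PTGS2 at 4.62, HPGD at 1.76, PTGER4 at 0.737, PTGES at 0.425 and PTGS1 at 0.0108 CPM per kilobase. The libraries of PLA2G4A and PTGR1, of PTGR1 and PTGS2, and of PTGER4 and PTGES overlapped there. LIM1215-R2 had the same first 8 places, with PLA2G4A at 6.59, PTGR1 at 4.86, PTGS2 at 2.98 and HPGD at 1.39 CPM per kilobase, and none of those neighbours overlapped. HPGD thus stood above PTGS2 in parental cells and below it in both resistant lines. The ratio of PTGS2 to HPGD per kilobase was 0.0931 ± 0.00141 for LIM1215-parental, 2.66 ± 0.241 for LIM1215-R1 and 2.15 ± 0.335 for LIM1215-R2 (SD, n = 3), a ratio 28.5 and 23.1 times that of parental cells. The ratio includes the picked gene HPGD, so it is a description. With the length of the longest transcript in place of all exons, 2 genes changed places in each resistant line, PLA2G4A and PTGR1. By that length PTGS2 and HPGD stood closer, at 5.38 and 3.33 CPM per kilobase in LIM1215-R1. In LIM1215-R2 they stood at 3.47 and 2.64, so the size of their ratio depends on the length used.

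**Figure D3:**
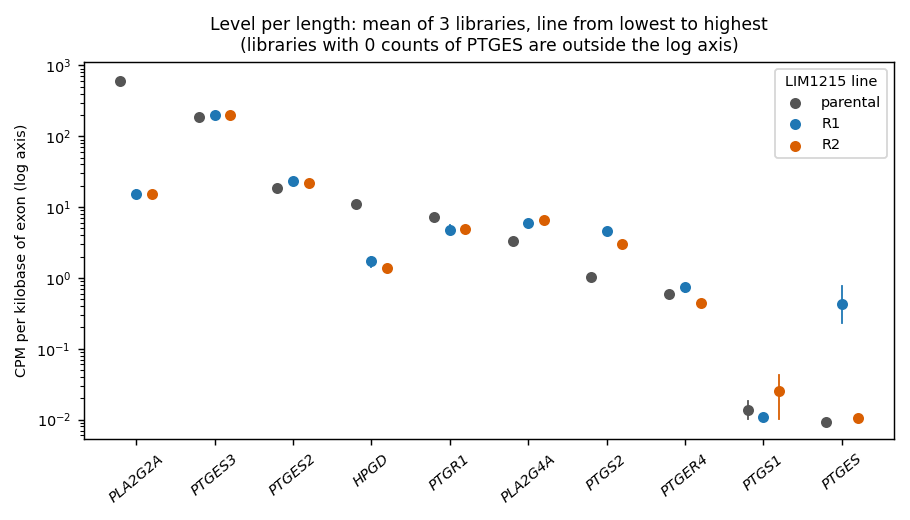
Level per kilobase of exon (y axis, log scale, CPM per kilobase) of the 10 genes (x axis, ordered by their level in parental cells) in the 3 lines. Points are means of 3 libraries and vertical lines run from the lowest to the highest library, leaving out libraries with 0 counts. PLA2G2A drops from 605 to 15.2 in both resistant lines, and HPGD and PTGS2 exchange order.

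The rest of the prostaglandin pathway showed no single direction. Of 20 further synthases, receptors, transporters and inactivating enzymes, 17 had a count and 11 were tested. In LIM1215-R1, 1 passed as higher and 4 as lower, against 27.3% of all genes tested. In LIM1215-R2, 3 passed as higher and 2 as lower, against 23.8% of all genes tested. PTGDR, among the lower genes in both lines, had enough counts to be tested only through parental cells. Its place in these numbers is a description. The median log2 fold change of the 11 was -0.11 (LIM1215-R1) and 0.03 (LIM1215-R2). Of the enzymes that form other prostaglandins, CBR1, a carbonyl reductase that can act on prostaglandin E2, was higher in both lines (log2 fold changes 0.40 and 0.46, edgeR adjusted p = 4.172e-07 and 3.855e-08). AKR1B1, an aldose reductase that can form prostaglandin F2α, was lower in both (-0.26 and -0.59, edgeR adjusted p = 0.002836 and 7.644e-08). AKR1C3 was higher in LIM1215-R2 (1.08, edgeR adjusted p = 2.837e-05) and close to parental cells in LIM1215-R1 (-0.02, adjusted p = 0.959). These 3 genes were named after their values were seen.

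Receptors for prostaglandins other than PTGER4 were rare. PTGER2 and PTGFR had 0 counts over the 9 libraries, and PTGER1 had 5. PTGER3, the EP3 receptor that lowers cyclic AMP, had 14, 18 and 16 counts in the parental libraries, 4, 0 and 4 in LIM1215-R1, and 15, 19 and 14 in LIM1215-R2. It was low in LIM1215-R1, where its log2 fold change was -2.50 (SE 0.531, edgeR adjusted p = 0.0004325), and near the parental level in LIM1215-R2 (0.03, adjusted p = 0.969). The difference between the resistant lines was 2.53 (edgeR adjusted p = 0.00147), and it did not pass without LIM1215-R2 replicate 2 (adjusted p = 0.014).

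PTGDR, a receptor of prostaglandin D2, had 14, 13 and 19 counts in the parental libraries, 0, 1 and 0 in LIM1215-R1 and none in LIM1215-R2. It was 44.5-fold lower in LIM1215-R1 (95% interval 7.60 to 1796, counting error only), and in LIM1215-R2 it was lower by at least 14.9-fold against a floor of 3 counts over the line (edgeR adjusted p = 1.792e-05 and 5.619e-06). PTGDS, a synthase of prostaglandin D2, had 1 count in each parental library, 4, 7 and 5 in LIM1215-R1, and 6, 3 and 15 in LIM1215-R2. Its ratio in LIM1215-R2 was 8.26 (95% interval 2.51 to 42.8, edgeR adjusted p = 0.005576), with the adjusted p between 0.01097 and 0.09614 when any parental library or LIM1215-R2 replicate 3 was left out. In LIM1215-R1 it did not pass (adjusted p = 0.0347).

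**Figure D4:**
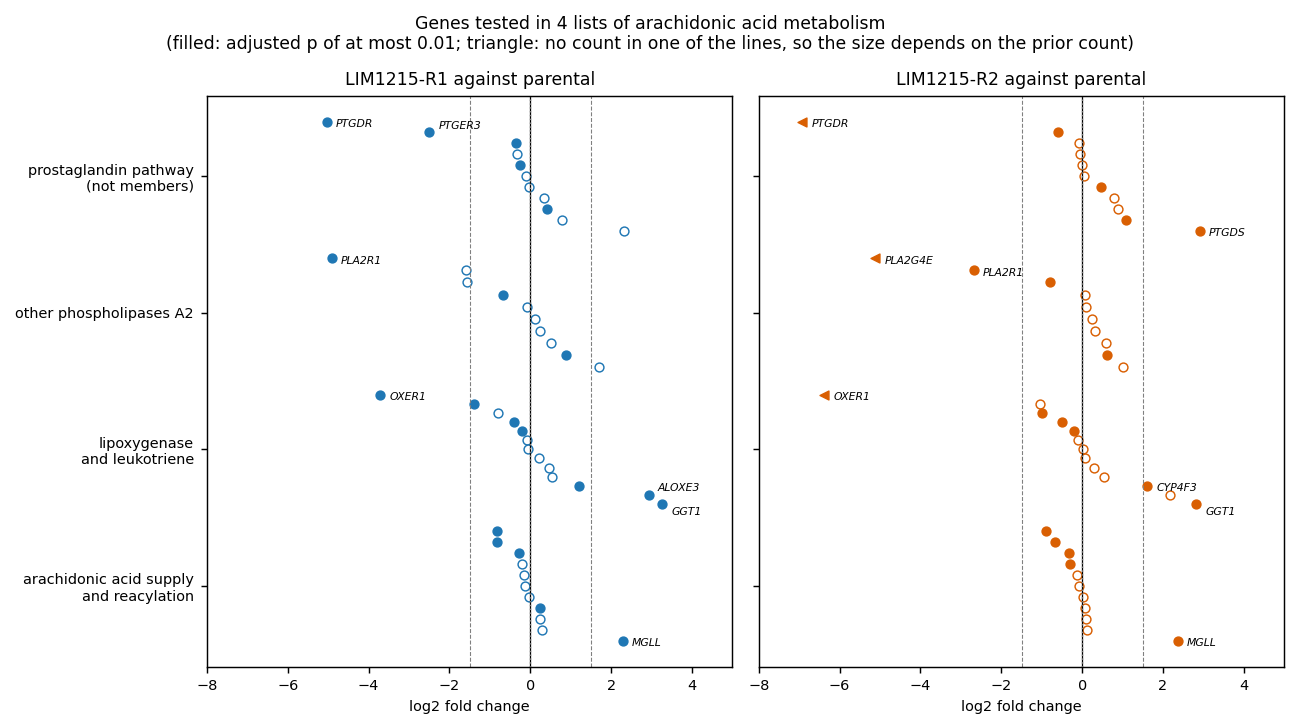
Log2 fold change (x axis) of the genes tested in 4 lists of arachidonic acid metabolism (y axis) in LIM1215-R1 (left) and LIM1215-R2 (right). Filled symbols passed the test, names mark DEGs, triangles have no count in one of the lines, dashed lines mark 1.5 in either direction and the dotted line is the median of all genes tested. Each list has genes on both sides of 0, with MGLL and GGT1 far to the right in both lines.

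Other phospholipases A2 were described by a list of 20 genes, of which 10 were tested. In LIM1215-R1, 1 passed as higher and 2 as lower, and in LIM1215-R2, 1 as higher and 3 as lower, with medians of 0.02 and 0.16 on the log2 scale. The shares of all genes tested that passed were 27.3% (LIM1215-R1) and 23.8% (LIM1215-R2). PLA2R1, lower in both lines, and PLA2G4E, lower in LIM1215-R2, had enough counts to be tested only through parental cells. Their place in these numbers is a description. PLA2G4E, a relative of PLA2G4A, had 2, 4 and 7 counts in the parental libraries, 1, 2 and 1 in LIM1215-R1 and none in LIM1215-R2, at least 4.20-fold lower in the last (edgeR adjusted p = 0.005798). That call was lost without any one of parental replicates 2 and 3 or of the 3 LIM1215-R2 libraries (adjusted p of 0.01114 to 0.02968).

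Genes that supply arachidonic acid or put it back into phospholipids were tested for 11 of 12. In LIM1215-R1, 2 passed as higher and 3 as lower, and in LIM1215-R2, 1 as higher and 4 as lower, with medians of -0.12 and -0.08. Of all genes tested, 27.3% passed in LIM1215-R1 and 23.8% in LIM1215-R2. MGLL, the monoacylglycerol lipase that frees arachidonic acid from the endocannabinoid 2-arachidonoylglycerol, was the DEG of the list. It stood at 17.8, 16.5 and 16.2 CPM in the parental libraries, 77.3, 85.5 and 83.8 CPM in LIM1215-R1, and 84.5, 86.6 and 88.0 CPM in LIM1215-R2. The resistant libraries were all far above the parental ones, with log2 fold changes of 2.29 (SE 0.0682, edgeR adjusted p = 5.237e-20) and 2.36 (SE 0.0680, edgeR adjusted p = 2.451e-20). LPCAT2 and LPCAT3, acyltransferases that rebuild phosphatidylcholine, passed as lower in both lines, with log2 fold changes of -0.83 and -0.81 (LIM1215-R1) and -0.68 and -0.90 (LIM1215-R2). This pair was named after its values were seen.

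The lipoxygenase and leukotriene list held 21 genes, of which 13 were tested. In LIM1215-R1, 3 passed as higher and 4 as lower, and in LIM1215-R2, 2 as higher and 4 as lower, with medians of -0.05 and 0.02. The shares of all genes tested were again 27.3% (LIM1215-R1) and 23.8% (LIM1215-R2). OXER1, among the lower genes in both lines, had enough counts to be tested only through parental cells. Its place in these numbers is a description. ALOX5, ALOX12 and ALOX15, the main lipoxygenases, had 2 counts each over the 9 libraries. GGT1, a glutamyl transferase that converts leukotriene C4, rose from 3.53 ± 1.10 CPM to 33.0 ± 1.21 CPM (LIM1215-R1) and 24.3 ± 0.0404 CPM (LIM1215-R2) (SD, n = 3). Its log2 fold changes were 3.27 and 2.82 (edgeR adjusted p = 6.828e-18 and 3.88e-16). The gene has near-identical family copies, so its counts are uncertain. CYP4F3, which inactivates leukotriene B4, rose from 4.23 to 9.93 and 13.1 CPM (log2 fold changes 1.20 and 1.61, edgeR adjusted p = 1.898e-07 and 4.577e-10), and was a DEG in LIM1215-R2 only. Its close relative CYP4F2 makes the count uncertain, and without parental replicate 2 the value in LIM1215-R2 was 1.48, outside the DEG threshold.

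The last DEGs of that list were rare transcripts. ALOXE3, an epidermal lipoxygenase, had 3, 0 and 2 counts in the parental libraries, 9, 18 and 12 in LIM1215-R1, and 11, 5 and 7 in LIM1215-R2. It was higher in LIM1215-R1 (log2 fold change 2.93, edgeR adjusted p = 0.0004659) and did not pass in LIM1215-R2 (2.17, adjusted p = 0.0156). OXER1, a receptor of an oxidised arachidonic acid product, had 9, 7 and 16 counts in the parental libraries, 0, 2 and 0 in LIM1215-R1 and none in LIM1215-R2. It was 15.5-fold lower in LIM1215-R1 (95% interval 3.95 to 133, counting error only), and in LIM1215-R2 it was lower by at least 10.3-fold (edgeR adjusted p = 0.001109 and 0.000143). The call in LIM1215-R1 was lost without parental replicate 3 (adjusted p = 0.01083).

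The genes with the pattern most like PLA2G2A over the 9 libraries were ranked by the root mean square difference of centred log2 CPM among 9596 genes with a mean of at least 10 CPM in the highest line. SLCO3A1, an organic anion transporter whose family carries prostaglandins, came first (0.447), followed by GNE (0.557), PADI2 (0.576), VAV3 (0.591) and PRKAR2B (0.694). SLCO3A1 had means of 28.1 CPM in parental cells and 1.21 and 1.02 CPM in the resistant lines. The genes closest to HPGD were GLI2 (0.195), SMTNL2 (0.213), DOCK11 (0.216), CAPN9 (0.226) and TANC2 (0.233). GLI2, a transcription factor of Hedgehog signalling, had means of 19.5 CPM in parental cells and 2.71 and 1.90 CPM in the resistant lines. These 9 libraries fall into 3 lines, so the likeness mostly describes the difference between lines. When genes were ranked by Pearson's correlation instead, 0 of 5 genes were shared for either target.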

How the data were processed

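Whole-number read counts per gene were deposited by the authors, 1 table per library, and are not normalized. The labels and methods name stranded poly(A) libraries, STAR alignment to hg38 and HTSeq 0.9.1 counting on the reverse strand, and the gene annotation was not given in the sources used here. Groups came from the sample titles, and the main fit did not pair libraries by replicate number. One edgeR 4.0.16 quasi-likelihood fit (R 4.3.3, TMM factors) over the 3 lines took every gene whose counts summed to 10 or more, after the code had been tested on simulated data. PTGES met that sum only through LIM1215-R1. PTGDR, PLA2R1, OXER1, PLA2G4E and the markers ATOH1, ITLN1 and LYZ met it only through parental cells. Their calls rest on the line where each was high and are descriptions. CPM are TMM-scaled. Intervals are 95% and those on counts cover counting error only. The design had named RefSeq lengths, and GENCODE v44 exon lengths on hg38 were used instead because the RefSeq tables hold no exons. Promoter windows are from RefSeq.

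The members and lists were chosen with earlier results of these data known. Named genes were all members, the DEGs of the 4 other lists (up to 8 per list), and the 5 genes most like PLA2G2A and HPGD (centred log2 CPM, prior count 2). Others are stated as chosen after their values were seen. Alternatives were other filters, DESeq2 1.42.0 scaling, its Wald test and its shrinkage, the 6 libraries of a comparison, a replicate block, a log2 threshold of 1 and leaving out each library.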

Additional observations from a re-analysis of the deposited data

Results flagged for a closer look

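Among the members and the 4 other lists of arachidonic acid metabolism, 4 genes were DEGs against parental cells and passed between the resistant lines. In that direct edgeR comparison of LIM1215-R2 with LIM1215-R1, 7.16% of all genes tested passed. The 4 genes were flagged for this difference, so their number is a description. PTGS2 was lower in LIM1215-R2 (log2 fold change -0.63, adjusted p = 2.428e-05), although higher than in parental cells in both lines. PTGES was lower in LIM1215-R2 (-4.84, adjusted p = 0.0006358), where 1 count was found against 39 in LIM1215-R1. It had enough counts to be tested only through LIM1215-R1. PTGER3 was higher in LIM1215-R2 (2.53, adjusted p = 0.00147), at about its parental level. That difference did not pass without LIM1215-R2 replicate 2 (adjusted p = 0.014). GGT1 was lower in LIM1215-R2 (-0.44, adjusted p = 0.001204) and above parental cells in both lines.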

How the results depend on the processing

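Log2 fold changes of the members kept their direction under all alternatives wherever they had passed, and all but PTGES2 in LIM1215-R2 stayed past the threshold wherever an adjusted p was given. PLA2G2A ranged from -5.43 to -5.20 in LIM1215-R1 and from -5.39 to -5.20 in LIM1215-R2, and HPGD from -2.76 to -2.54 and from -3.07 to -2.85. PTGES2 in LIM1215-R2 had an adjusted p of up to 0.0349 when single libraries were left out. With DESeq2's shrinkage PTGES fell to 0.94 in LIM1215-R1 and PTGS2 to 1.39 in LIM1215-R2. DESeq2 gave no adjusted p for PTGES between the resistant lines, and PTGES and PTGS1 could not be fitted when 10 counts were required in every library. By DESeq2's Wald test PTGDS (adjusted p = 0.01919) and PLA2G4E (adjusted p = 0.01821) did not pass in LIM1215-R2, and with shrinkage the DEGs with few counts, and CYP4F3 in LIM1215-R2 (1.44), lost the DEG call.

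The DEGs over all genes tested, 982, 921 and 146 in LIM1215-R1, in LIM1215-R2 and between the resistant lines, became 302, 297 and 34 when 10 counts were required in every library, which removed rare genes, and 394, 408 and 41 with shrinkage. A threshold of 1 gave 270 between the resistant lines. Members called between the resistant lines went from 1 to 0, and those not picked that passed from 2 to 1, with the stricter filter and with DESeq2's Wald test with or without shrinkage. Of the prostaglandin pathway, 2 genes were called in LIM1215-R1, which became 0 with the stricter filter or shrinkage. In LIM1215-R2 the 2 called became 0 with either of these, 1 with the Wald test, and 1 to 2 when single libraries were left out. Between the resistant lines the 1 called became 0 with either, 2 at a threshold of 1, and 0 to 1 when single libraries were left out. Of 5 pathway genes that passed in each resistant line, 3 did so with the stricter filter.

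The sample titles do not say whether libraries of the same replicate number belong together. The correlation of deviations was -0.106 to 0.274 for same-numbered libraries and -0.265 to 0.191 for others, and 1 of 9 libraries correlated best with its own number in both other lines. With so few libraries per line, these overlapping ranges cannot show whether numbers share a preparation. With the replicate block there were 976, 931 and 163 DEGs over all genes, and the block changed no call of a member. Depth limits PTGS1, PTGES and the rare receptors, where a few counts decide the value.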
